A study of Mus musculus with 18 samples.

Results

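Fabp7, Fabp5 and Fabp3 encode the brain, epidermal and heart-type fatty acid binding proteins, named after the tissues in which they were first described. They were taken by gene name, 3 of the 34921 genes in the expression table, and their transcripts were followed through 18 libraries of mouse brain in a model of focal stroke. The genes were chosen by name, but selected on FPKM of these same libraries, since they were proposed with earlier results known in which Fabp7 was among the transcripts lower at 4 h and higher at 3 days. Their levels are therefore given as a description, without p-values. For these 3 genes only, the text says on which side of the threshold each difference fell in a fit over all genes.

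Fatty acid binding proteins are small cytosolic proteins that fold into a barrel around a long-chain fatty acid and carry it to membranes, to lipid-using enzymes or to nuclear receptors. In the brain, Fabp7 (also called BLBP) is made by radial glia, by neural progenitors and by astrocytes, Fabp3 mainly by neurons, and Fabp5 by neurons, glia and endothelial cells. The PPAR nuclear receptors, which switch on genes of fatty acid use, are among the proteins that receive their cargo.

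All mice were male C57BL/6, an inbred strain, 9 weeks old, and no genetic change is named. Photothrombosis clots the vessels under a light spot: rose bengal, a light-sensitive dye, was injected at 100 mg/kg into the peritoneum 5 min before 15 min of 532 nm light at 40 mW from a 2 mm fiber placed 2 mm to the right of bregma (the meeting point of skull sutures used for aiming). Tissue punched from the lesioned right side was taken after 4 h, 1 day, 3 days or 10 days, and the control, sham right, is the matching right-side region of sham mice; what the sham mice received is not stated separately. The labels describe a further group of left-side punches as taken from mice with stroke in the protocol but as sham in the titles and disease state, with no time, and this group is called contralateral left here. Each group has 3 libraries from 3 animals. A library is named by the number in its title, which is 1, 2 or 3 in sham right. The numbers are 1, 3, 5 in contralateral left, 2, 3, 6 at 4 h, 1, 3, 4 at 1 day, 1, 2, 8 at 3 days and 1, 2, 5 at 10 days, and values are listed in that order. The labels leave unsaid if any mouse gave both a left and a right library. A punch holds all cells of the region, so fewer cells of a type and less RNA per cell cannot be told apart.

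Levels are in FPKM, which is a fragment count divided by transcript length and by the library's total, so that genes can be compared with each other; the read depth behind them is not given in the sources used here. The libraries showed 12118 to 13632 genes at 1 FPKM or more. Markers of brain tissue were high throughout, with 12 neuron genes summing to 1425 to 1846 FPKM, while 10 skeletal and heart muscle genes summed to 2.41 to 7.26 FPKM and the genes of the skin and fat list, homes of Fabp3, Fabp5 and Fabp4 elsewhere in the body, to at most 0.173 FPKM. Stroke 10 days 5 stood apart, with 44.6% of its summed FPKM from mitochondrially encoded genes against 24.4% to 39.0% in the others. In 4 libraries, contralateral left 5, 4 h 6, 1 day 4 and 10 days 5, the short messenger RNAs were lower than in the other libraries of their group. The median log2(FPKM + 1) of 293 protein-coding genes with under 1000 exon bases was 3.08 in 4 h 6, the lowest of the series, against 3.41 and 3.57 in its group, and 3.24 in left 5, against 3.796 and 3.816. It was 3.30 in 10 days 5, against 3.97 and 4.02, and 3.39 in 1 day 4, against 3.53 and 3.685. Since the Fabp transcripts are themselves short, this bears on their values, and some of the results that rest on these libraries are also given without them.

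The coding sequences show how alike the 3 transcripts are, which matters because short reads must tell them apart. The first 120 coding bases of each, on GRCm38 with transcripts of GENCODE release M21, are given 5′ to 3′ with the start codon in capitals, and all 3 genes lie on the plus strand.
Fabp7: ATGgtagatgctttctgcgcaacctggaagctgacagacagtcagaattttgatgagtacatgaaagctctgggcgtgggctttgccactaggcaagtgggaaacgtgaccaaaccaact
Fabp5: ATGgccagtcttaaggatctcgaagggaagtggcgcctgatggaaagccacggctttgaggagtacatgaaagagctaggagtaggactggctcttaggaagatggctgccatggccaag
Fabp3: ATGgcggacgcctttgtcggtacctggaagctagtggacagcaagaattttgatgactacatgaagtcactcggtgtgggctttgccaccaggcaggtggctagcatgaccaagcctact

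Fabp7 (ENSMUSG00000019874) lies at chr10:57784881-57788450, Fabp5 (ENSMUSG00000027533) at chr3:10012548-10016607 and Fabp3 (ENSMUSG00000028773) at chr4:130308595-130315463. Their transcripts have 804, 987 and 823 bases, of which 399, 408 and 402 are coding. Over the aligned coding bases, Fabp7 and Fabp3 were 66.4% identical, Fabp7 and Fabp5 58.7%, and Fabp5 and Fabp3 58.2%.

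Near-identical copies exist for 2 of the 3 genes, and reads of these could be split between gene and copy. The processed pseudogene Fabp3-ps1 matched the Fabp3 coding sequence at 399 of 402 bases. It differed from Fabp3 at A40T, C297T and G334A, with the base of Fabp3 first and positions counted from the first coding base. Its level was 1.84 to 5.17 FPKM, on average 4.12% of that of Fabp3. For Fabp5, the pseudogene Gm6166 was 98.3% identical over 409 aligned bases and had 0.616 to 2.35 FPKM, on average 3.05% of Fabp5. Gm14328 (97.3% identical) averaged 0.678% of Fabp5, and the other copies in the file were at or under 0.00993 FPKM. No such copy was found for Fabp7. Fabp3 also overlaps the antisense genes Zcchc17, by 81 bases, and Gm10570, by 80. Zcchc17 had 9.64 to 14.6 FPKM and the use of strand in the quantification is not stated, so a part of the Fabp3 level may belong to it.

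Fabp7 was the member that varied most. Its transcript fell at 4 h, was the most abundant of the 3 at 3 days, and at 10 days overlapped sham right again. In sham right 1, 2 and 3 it measured 30.0, 36.1 and 35.1 FPKM. At 4 h the libraries held 8.53, 7.82 and 9.52 FPKM, all below every sham right library, as were 17.2% of all genes. The mean was 8.62 ± 0.851 (SD, n = 3) against 33.7 ± 3.27 FPKM, 3.91-fold lower, and the difference on the log2(FPKM + 1) scale was -1.85 ± 0.31 (SE). This scale slightly understates changes of low genes.

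At 4 h the Fabp7 difference passed the test, limma with Benjamini-Hochberg adjustment over the 14016 genes tested and a threshold of 0.05, as did 0.863% of genes in the lower direction. It was the 12th lowest difference of all genes tested. At 1 day Fabp7 measured 12.2, 17.1 and 15.3 FPKM, again below every sham right library, as were 8.5% of all genes at that time. These values lay above every 4 h library, as did those of 12.6% of genes. The log2 difference from sham right was -1.14 ± 0.31 and did not pass the test, although it was the 24th lowest. It did pass when only the libraries of the 2 groups were fitted, when contralateral left 5 and 10 days 5 were left out, and with the replicate number as a block (-1.20). The step up from 4 h, 0.71 ± 0.31, passed only without left 5 and 10 days 5.

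At 3 days Fabp7 was at 149, 119.8 and 215 FPKM, above all other libraries of the series, with stroke 3 days 8 the highest. The mean of 161.5 ± 49.0 FPKM was 4.79-fold that of sham right. The log2 difference of 2.19 ± 0.31 passed the test, as did 6.91% of all genes in the higher direction, and it was the 60th highest. From 1 day to 3 days the mean differed 10.85-fold, a log2 difference of 3.33 ± 0.31 (3.325 before rounding), the third highest of all genes between these times, where 5.07% passed as higher and 16.9% had 3 values above the other 3.

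At 10 days Fabp7 measured 53.3, 39.9 and 25.5 FPKM, on both sides of sham right, and the log2 difference was 0.17 ± 0.31 (0.44 without 10 days 5). Against 3 days it was lower by a log2 difference of -2.02 ± 0.31, which passed the test with 1.19% of genes in that direction. In that step 20.1% of all genes had 3 values below the other 3, and Fabp7 had the 7th lowest difference. In a fit of the 3-day and 10-day libraries alone this difference did not pass, and only 3 of all genes did. Without 10 days 5 it was -1.74 and passed. In contralateral left 1, 3 and 5 Fabp7 was at 32.6, 29.0 and 12.85 FPKM, the last far below the other libraries of its group. The log2 difference from sham right was -0.52 ± 0.31 (-0.12 without left 5) and did not pass; 0.0285% of genes did so in this comparison.

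**Figure D1:**
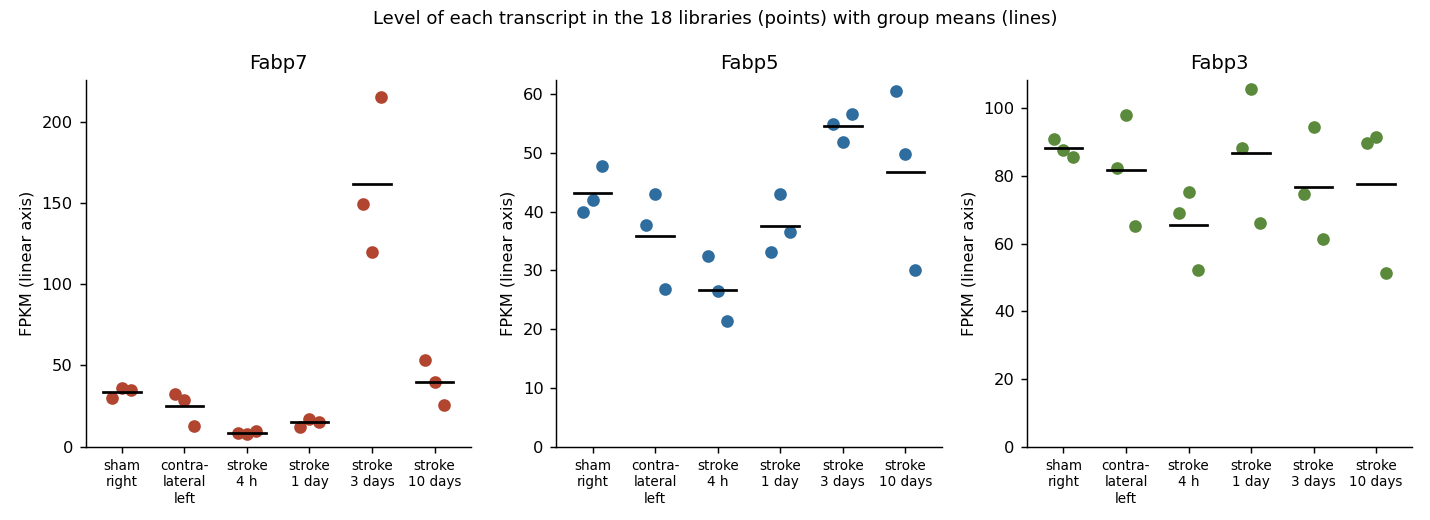
FPKM (linear vertical axes starting at 0) of Fabp7, Fabp5 and Fabp3 in each of the 18 libraries, as points by group, with the group mean as a line. Fabp7 runs from 7.82 FPKM at 4 h to 215 FPKM at 3 days, while Fabp3 stays between 51.4 and 105.7 FPKM, with the 4 h libraries below sham right and the other groups overlapping it.

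Fabp5 followed Fabp7 in direction with smaller differences. It measured 40.0, 41.9 and 47.7 FPKM in sham right and 32.4, 26.5 and 21.4 FPKM at 4 h, all 3 below every sham right library, as were 17.2% of all genes. The mean was 1.62-fold lower, 26.75 ± 5.52 against 43.2 ± 4.00 FPKM, and the log2 difference of -0.69 ± 0.23 (-0.54 without 4 h 6) did not pass the test. At 1 day the libraries held 33.2, 42.95 and 36.6 FPKM and overlapped sham right, with a log2 difference of -0.20 ± 0.23. These values lay above all 4 h values, as did those of 12.6% of genes, and 1.23% of genes passed the test between the 2 times in either direction, none of them Fabp7, Fabp5 or Fabp3.

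At 3 days Fabp5 was at 55.0, 51.9 and 56.7 FPKM, above every sham right library, a pattern that 27.2% of genes shared. The mean was 54.5 ± 2.43 FPKM, 1.26-fold that of sham right, with a log2 difference of 0.33 ± 0.23 that did not pass the test. At 10 days it ranged most widely within a group, at 60.5, 49.8 and 30.1 FPKM, with 10 days 5 the lowest, and the log2 difference was 0.06 ± 0.23 (0.34 without 10 days 5). Contralateral left measured 37.8, 43.0 and 26.8 FPKM, with left 5 the lowest, and a log2 difference of -0.28 ± 0.23 (-0.095 without left 5). From 4 h to 1 day, 1 to 3 days and 3 to 10 days the log2 differences were 0.49, 0.53 and -0.27, each ± 0.23, and none passed. When only the libraries of the 2 groups were fitted, the 4 h and 3 day differences and the step from 1 to 3 days did pass, and without contralateral left 5 and 10 days 5 the 4 h difference and that step.

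Fabp3 was the most abundant member in sham right and differed least between groups. It measured 91.0, 87.8 and 85.7 FPKM in sham right and 68.9, 75.1 and 52.1 FPKM at 4 h, below every sham right library, as were 17.2% of all genes. The log2 difference at 4 h was -0.44 ± 0.24 and did not pass the test. It was -0.29 without 4 h 6, and -0.23 with each library centred on its short genes. At 1 day the values were 88.3, 105.7 and 66.2 FPKM, at 3 days 74.5, 94.3 and 61.3 FPKM, and at 10 days 89.7, 91.35 and 51.4 FPKM. These 3 groups each overlapped sham right, with log2 differences of -0.05, -0.22 and -0.23, each ± 0.24. Contralateral left was at 82.4, 98.0 and 65.1 FPKM and also overlapped, at -0.13 ± 0.24 (0.03 without left 5).

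From 4 h to 1 day, 1 to 3 days and 3 to 10 days the log2 differences of Fabp3 were 0.39, -0.17 and -0.01, each ± 0.24. None of the 8 Fabp3 comparisons passed the test, which does not show that its level was the same. In each group other than sham right, 1 library was clearly lowest for Fabp3: left 5, 4 h 6, 1 day 4, 3 days 8 and 10 days 5. With 10 days 5 left out, the 10-day difference of Fabp3 turned from -0.23 to 0.04, and with 1 day 4 left out the 1-day difference turned from -0.05 to 0.13. The 3-day difference of -0.22 was -0.071 without 3 days 8 and -0.38 without 3 days 2.

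**Figure D2:**
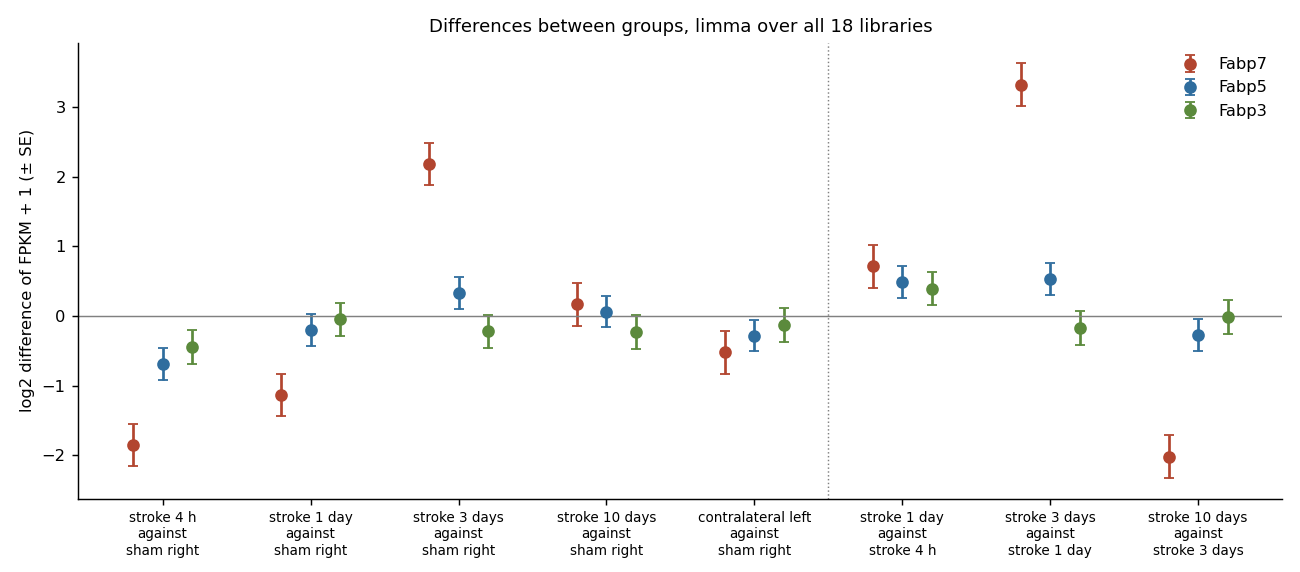
Log2 difference of FPKM + 1 between groups for the 3 transcripts, with bars of ± 1 SE from the fit over all 18 libraries; comparisons with sham right are left of the dotted line and steps between stroke times right of it. Fabp7 goes from -1.85 at 4 h to 2.19 at 3 days, whereas Fabp3 lies between -0.44 and 0.39 throughout.

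The order of the 3 transcripts changed with time. Within each sham right library Fabp3 was highest, Fabp5 next and Fabp7 lowest, and Fabp7 made up 18.6% to 21.8% of their summed FPKM. This share was 7.14% to 11.5% at 4 h and 9.14% to 13.0% at 1 day. At 3 days Fabp7 was the highest in each library, with 45.0% to 64.6%, and at 10 days its share was 22.0% to 26.2%, just above the sham right range. A ratio within a library does not depend on how the library was scaled. The ratio of Fabp7 to Fabp3 was 0.330 to 0.411 in sham right, 0.104 to 0.183 at 4 h and 1.27 to 3.52 at 3 days.

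The summed FPKM of the 3 transcripts was 161.0 to 168.5 in sham right and 82.9 to 109.8 at 4 h. It was 266.0 to 333.4 at 3 days, above every other library. The share of Fabp5 stayed between 24.2% and 31.0% in all libraries except those at 3 days, where it was 17.0% to 19.7%. In contralateral left 5 and 10 days 5, where FPKM of all 3 was low, Fabp7 made up 12.3% and 23.8%, the former below and the latter between the shares of the other libraries of its group.

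**Figure D3:**
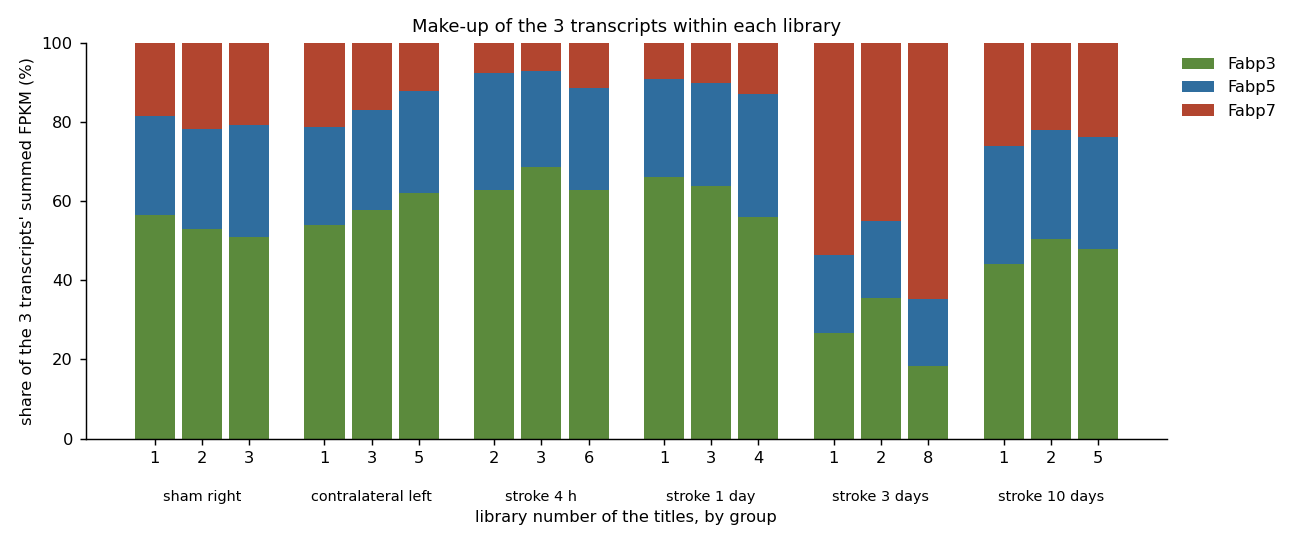
Share of Fabp3, Fabp5 and Fabp7 in their summed FPKM (%, stacked to 100), 1 bar per library, with library numbers from the titles. Fabp7 takes 7.14% to 26.2% of the sum outside the 3-day group and 45.0% to 64.6% within it.

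Across the 18 libraries the log2 levels of Fabp7 and Fabp5 went together, with Pearson's r 0.83 and Spearman's rho 0.90. Fabp5 and Fabp3 had r 0.55, and Fabp7 and Fabp3 r 0.16. These are descriptions over libraries that share their groups and their level of short messenger RNA. The median of the 293 short genes correlated with Fabp5 at r 0.85, with Fabp3 at 0.67 and with Fabp7 at 0.61. The part of short messenger RNA in the results was examined by centring each library on that median, an alternative added after the data had been seen. Fabp7 then still passed the test at 4 h, at 3 days and in the steps from 1 to 3 and from 3 to 10 days, while the small 10-day differences of Fabp7 and Fabp5 turned to -0.03 and -0.14.

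**Figure D4:**
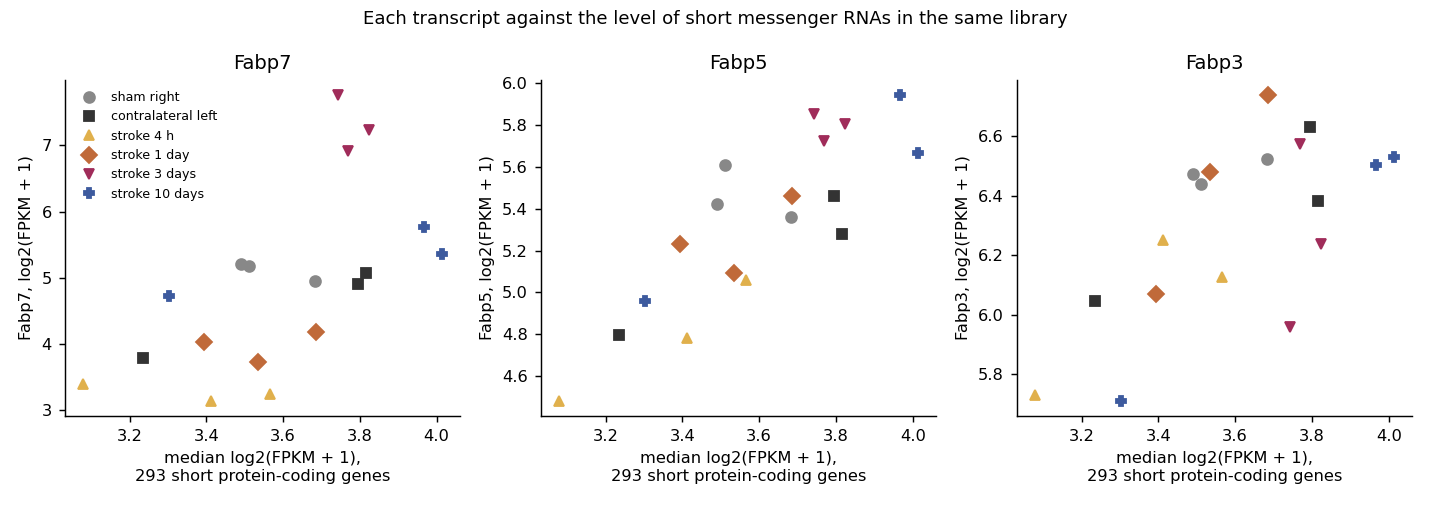
Log2(FPKM + 1) of each transcript (vertical axes, not starting at 0) against the median log2(FPKM + 1) of 293 short protein-coding genes in the same library, with a symbol for each group. Fabp5 is higher where the short-gene median is higher (r 0.85 over 18 libraries), while the 3-day libraries stand above all others for Fabp7.

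By a rule of highest Pearson's r over the 18 libraries, among 7105 genes with a mean of at least 5 FPKM, the patterns most like Fabp7 included those of Gnai2, a G protein subunit (0.90), Prdx6, a peroxiredoxin (0.90), Pbxip1 (0.88) and Lgals1, a galectin (0.88). Those most like Fabp5 were Dscr3 (0.93), S100a13, a small calcium binding protein (0.91), Nsmce1 (0.90), Atox1, a copper chaperone (0.89), and Leprot (0.89). Those most like Fabp3 were Nop10, a ribosomal RNA pseudouridylation component (0.94), Cisd1, an iron-sulfur protein of mitochondria (0.93), Polr2j, an RNA polymerase II subunit (0.93), Cox6b1, a subunit of cytochrome c oxidase (0.93), and Txndc15 (0.92). The 3 lists share no gene.

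Further genes of the intracellular lipid binding family were mostly at low levels. Fabp4, the adipocyte form, reached at most 0.554 FPKM, and Pmp2, Fabp12, Rbp2 and Rbp7 were at or under 0.174 FPKM; Fabp1, Fabp2, Fabp6 and Fabp9 were not analysed here. Crabp1 and Crabp2, which bind retinoic acid, had at most 1.61 and 5.50 FPKM; both passed the filter of at least 1 FPKM in 3 or more libraries and passed the test in none of the 8 comparisons; Crabp1 was above every sham right library at 3 days, by 0.47 ± 0.22, as were 27.2% of all genes.

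Genes around the fatty acid binding proteins were followed in lists that were written with earlier results of these data known. The calls and adjusted p-values given for their genes therefore describe these data and are no independent tests. Counts past the test are given, for some lists and times with the median log2 difference. Over all genes tested this median was 0.01 at 4 h, 0.03 at 1 day, 0.08 at 3 days and -0.07 at 10 days. In the higher direction 1.32% of all genes passed at 4 h, 0.899% at 1 day and 6.21% at 10 days. In the lower direction the shares were 0.278% at 1 day, 0.457% at 3 days and 0.92% at 10 days.

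Among 14 tested genes that take up, activate or move fatty acids outside this family, none passed limma's adjusted test at 4 h or 1 day (2 and 1 at an unadjusted p under 0.05). At 3 days Cd36, a fatty acid receptor of phagocytes and vessels, rose by 1.41 ± 0.37 (adjusted p = 0.0258), and Acsl3, an acyl-CoA synthetase, fell to -0.40 ± 0.11 (adjusted p = 0.034), with a list median of 0.15. At 10 days Cd36 (2.38 ± 0.37) and Lpl, lipoprotein lipase (2.19 ± 0.24), rose, Acsl3 fell (-0.41 ± 0.11), and the median was -0.27. Dbi, the acyl-CoA binding protein, was higher at 3 days than at 1 day, 121.8 ± 11.4 against 70.7 ± 8.68 FPKM, with adjusted p = 0.0167 by limma.

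Of 9 tested PPAR and retinoid receptor genes, 1 passed the test at any time: Rara, a retinoic acid receptor, rose at 4 h by 0.77 ± 0.19 (adjusted p = 0.045). Ppara was under the filter, with 0.344 to 0.822 FPKM. Of 9 tested PPAR target genes, 2 rose at 4 h, 1 rose and 1 fell at 1 day, 4 rose at 3 days and 3 at 10 days. Plin2, a coat protein of lipid droplets, went from 1.64 ± 0.205 FPKM in sham right to 20.0 ± 9.08 at 3 days and 16.6 ± 5.11 at 10 days, log2 differences of 2.89 ± 0.27 and 2.69 ± 0.27. Ucp2, a mitochondrial carrier, rose by 1.78 ± 0.33 and 2.62 ± 0.33 at these times. Angptl4, an inhibitor of lipoprotein lipase, rose at all 4 times, by 1.00 to 1.22. The list medians were 0.14, -0.01, 0.34 and 0.36 from 4 h to 10 days.

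Of 18 genes of fatty acid oxidation, 4 rose and none fell at 3 days, with a median of 0.34 and the largest differences in Cpt1a (0.77 ± 0.15) and Cpt2 (0.57 ± 0.15), the carnitine palmitoyltransferases that pass fatty acids into mitochondria. None passed limma's adjusted test at 4 h, 1 day or 10 days (5, 0 and 3 at an unadjusted p under 0.05), where the medians were -0.20, -0.15 and 0.04. Of 12 genes of fatty acid synthesis and desaturation, only Elovl1, an elongase, passed in a comparison with sham right, higher at 1, 3 and 10 days by 0.60, 0.45 and 0.94. Of 8 tested genes that release fatty acids or make eicosanoids, Ptgs2, the inducible cyclooxygenase, rose at 4 h (1.03 ± 0.23) and Ptges, a prostaglandin E synthase, at 1 day (1.17 ± 0.18). At 3 days 4 rose, led by Alox5ap, the 5-lipoxygenase activating protein (1.96 ± 0.24), and Ptges (0.85 ± 0.18). At 10 days 3 rose, led by Alox5ap (1.73 ± 0.24) and Ptgs1 (0.74 ± 0.12).

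Fabp7 marks cells of the astrocyte lineage, so these were examined beside it. Of 14 genes of resting astrocytes, 1 passed at 4 h: Aqp4, a water channel of astrocyte endfeet, fell from 37.1 ± 5.14 to 18.6 ± 1.94 FPKM (log2 difference -0.96 ± 0.17, adjusted p = 0.0067). The list median was -0.26 at 4 h and -0.10 at 3 days, when Aldh1l1 rose by 0.74 ± 0.20. Their summed level was 941.8 to 1049 FPKM in sham right, 823.9 to 902.6 at 4 h and 776.1 to 962.9 at 3 days. Fabp7 amounted to 2.87% to 3.84% of that sum in sham right, 0.866% to 1.15% at 4 h and 12.6% to 27.8% at 3 days, so relative to the sum, too, it was lower at 4 h and higher at 3 days than in every sham right library.

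Of 10 genes of reactive astrocytes, 1 rose at 4 h, 8 at 1 day, 9 at 3 days and 8 at 10 days, with medians of 0.58, 1.74, 2.21 and 1.91. Gfap, the intermediate filament of astrocytes, was at 48.95 ± 5.47 FPKM in sham right, 214.3 ± 70.7 at 1 day, 434.3 ± 78.2 at 3 days and 210.4 ± 27.9 at 10 days. Gfap and Fabp7 thus differed at 1 day, when Gfap was above every sham right library and Fabp7 below. The ratio of Fabp7 to Gfap was 0.587 to 0.846 in sham right, 0.0530 to 0.0837 at 1 day, 0.289 to 0.508 at 3 days and 0.143 to 0.232 at 10 days.

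Of 10 radial glia and progenitor genes, 1 fell at 4 h, 2 rose and 1 fell at 1 day, 3 rose and 1 fell at 3 days, and 1 rose at 10 days. The filament genes Vim and Nes rose at 1 day (1.41 ± 0.24 and 1.06 ± 0.21) and 3 days (3.69 ± 0.24 and 1.64 ± 0.21), when Tnc, which encodes the matrix protein tenascin C, also rose. The list median was -0.21, -0.19, 0.10 and 0.06 from 4 h to 10 days. From 3 to 10 days Nes fell by 1.58 on the log2 scale, and Tnc (-1.25 ± 0.23) and Vim (-0.96 ± 0.24) fell too, in the same step in which Fabp7 was lower. The list as a whole did not share this fall. In that step 4 of its 10 genes were above 0, and its median was -0.19 against -0.15 over all genes tested. Vim also belongs to the reactive astrocyte list. Of 10 tested regulators tied to Fabp7, such as Notch effectors and nuclear factor I genes, Hes1, a Notch effector, rose at 4 h by 0.75 ± 0.16 (adjusted p = 0.0253) and Hes5, another, fell at 10 days (-1.26 ± 0.35, adjusted p = 0.0375). None passed limma's adjusted test at 1 day or 3 days (1 and 3 at an unadjusted p under 0.05), and Pax6 was under the filter.

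**Figure D5:**
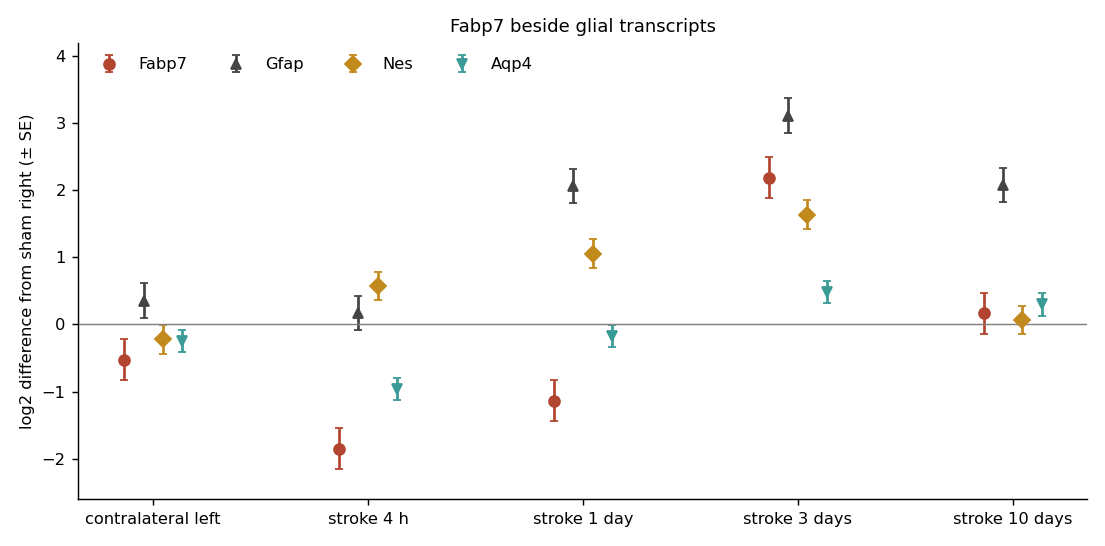
Log2 difference from sham right (± SE, limma) of Fabp7, Gfap, Nes and Aqp4 in the contralateral left group and at the 4 stroke times. At 1 day Gfap lies at 2.06 and Nes at 1.06 while Fabp7 lies at -1.14, and at 3 days all 4 are above 0. Aqp4 and Nes do not stand for their lists. Of the 14 resting astrocyte genes, 4 were above 0 at 3 days (median -0.10). Of the 10 radial glia and progenitor genes, 4 were above 0 at 1 day (median -0.19).

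Other cell types moved with the same times, and their part in the Fabp levels was not tested. Of 8 genes of dividing cells, none passed limma's adjusted test at 4 h or 1 day (0 and 1 at an unadjusted p under 0.05) and 7 rose at 3 days (median 1.85, the group sum 62.5 to 99.3 FPKM against 32.9 to 36.6 in sham right), of which 6 were lower again at 10 days than at 3 days. Of 12 microglia and macrophage genes, 9 rose at 3 days and 9 at 10 days. Their sum was 53.3 to 74.8 FPKM in sham right and 203.9 to 347.8 at 3 days. At 10 days the sum was 867.2, 716.8 and 2232 FPKM, the last in 10 days 5, so it was highest when Fabp7 again overlapped sham right. Of 12 endothelial genes, 4 fell at 4 h, led by Itm2a (-1.63 ± 0.19) and Slco1a4 (-1.42 ± 0.25), and the sum was 108.6 to 122.0 FPKM against 152.8 to 163.7. At 3 days, when Fabp7 was highest, 2 endothelial genes rose, Slc2a1, a glucose transporter (0.99 ± 0.26), and Pecam1, an adhesion molecule (0.68 ± 0.18), and the sum of 195.5 to 210.3 FPKM was above every sham right library. At 1 day only Itm2a passed, lower by a log2 difference of -1.29 ± 0.19, and at 10 days none passed limma's adjusted test (2 at an unadjusted p under 0.05). The endothelial medians were -0.52, -0.10, 0.30 and 0.14 from 4 h to 10 days.

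Of 12 neuron genes none passed limma's adjusted test at any of the 4 times (1, 0, 0 and 2 at an unadjusted p under 0.05), with medians of 0.10, 0.16, -0.02 and -0.29. Of 8 genes of oligodendrocyte precursors, a further cell type that can carry Fabp7, 1 rose at 3 days (Gpr17, 0.72 ± 0.19), with a median of 0.45. Of 5 tested genes of olfactory ensheathing glia, which carry Fabp7 too, none passed at any time (at most 1 at an unadjusted p under 0.05), and the list summed to 398.7 to 662.1 FPKM. The choroid plexus list ranged from 1.91 to 637.4 FPKM between libraries, also within groups, and none of its 6 genes passed at any time (at most 1 at an unadjusted p under 0.05). Its sum was 410.5 to 637.4 FPKM at 10 days and 385.8 to 545.3 in contralateral left, against 148.4 to 273.5 in sham right. The list medians in these 2 groups were 0.62 and 0.52. Without left 5 and 10 days 5, 1 of its genes passed as higher at 10 days. Of 8 genes of mature oligodendrocytes, Opalin fell at 4 h (-0.97 ± 0.24) and 1 day (-1.04 ± 0.24) and Cldn11 rose at 3 days (0.64 ± 0.18), with medians of -0.14, -0.51, -0.18 and -0.23.

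The list counts depended on how the libraries were treated. With contralateral left 5 and 10 days 5 left out, the genes higher at 3 days numbered 5 of 9 for PPAR targets, 9 of 18 for fatty acid oxidation, 9 of 10 for reactive astrocytes, 10 of 12 for microglia and macrophages and 7 of 8 for dividing cells. With each library centred on its short genes instead, they numbered 1, 0, 5, 8 and 6, so the calls in fatty acid oxidation at 3 days and most of those in PPAR targets were lost. Neither left-out library belongs to the 3-day comparison, so there only the shared spread changed. At 10 days, leaving them out gave 3, 0, 6, 10 and 0 genes higher in the same lists, against 3, 0, 8, 9 and 1. Over all lists, 26 of 29 calls at 10 days were then kept. Centring on short genes kept, over all lists, 3 of 13 calls at 4 h (Itm2a, Slco1a4 and Lcn2), 9 of 18 at 1 day, 23 of 48 at 3 days and 20 of 29 at 10 days. Among the genes named above, the calls of Angptl4, Rara, Ptgs2, Aqp4, Hes1 and Opalin were lost at 4 h, and those of Angptl4, Elovl1, Vim, Nes and Opalin at 1 day. At 3 days those of Cd36, Acsl3, Ucp2, Angptl4, Cpt1a, Cpt2, Elovl1, Ptges, Aldh1l1, Tnc, Slc2a1, Pecam1, Gpr17 and Cldn11 were lost, and at 10 days those of Acsl3, Angptl4, Elovl1 and Ptgs1. In settings also chosen after the data had been seen, 4 h 6 or 1 day 4 was left out. Without 4 h 6, 7 of the 13 calls at 4 h were kept, and those of Rara, Ptgs2, Hes1 and Opalin were lost, as was that of Opalin at 1 day. Without 1 day 4, 14 of the 18 calls at 1 day were kept, and those of Elovl1 and Nes were lost. In each of these 2 settings the call of Elovl1 at 3 days was lost too.

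The 208 bases just upstream of Fabp7, at chr10:57784673-57784880 on the plus strand of GRCm38.p6, from the RefSeq promoter table, are shown because Fabp7 is the member that moved most. They end at the base before the GENCODE gene start, and capitals mark a match to TTGGC, the half-site of nuclear factor I proteins.
Fabp7 upstream: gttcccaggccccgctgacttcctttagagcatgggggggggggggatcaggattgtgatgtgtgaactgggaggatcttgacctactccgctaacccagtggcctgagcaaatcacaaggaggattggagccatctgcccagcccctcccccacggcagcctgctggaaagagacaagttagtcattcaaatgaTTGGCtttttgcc

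The motifs were chosen after this stretch had been read, and each was searched on both strands. All windows compared, like that of Fabp7, run from 250 to 43 bases before the RefSeq start. For Fabp7 this ends at the GENCODE start, while for other genes the bases nearest their start may be left out. The shares below are therefore for a position that may be unlike that of Fabp7. TTGGC occurred once, and 11894 of the 32851 windows of this length in the table (36.2%) hold it. TGGGAA, the core bound by the Notch partner RBPJ, occurred once on the reverse strand, and 18.5% of windows hold it. AGGTCA, the half-site of nuclear receptors such as the PPARs, also occurred once on the reverse strand, with 11.9% of windows holding it. The octamer ATTTGCAT (1.38% of windows) and TATAAA (9.47%) did not occur. The motifs found do not overlap one another. A match is a description of the letters in this stretch, not of a bound site.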

How the data were processed

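Total RNA of punched mouse brain was sequenced in 18 libraries of 6 groups of 3. The build was GRCm38 and the tools StringTie 1.3.4d, HISAT2 2.1.0 and Trimmomatic 0.36, per the submitters' processing notes; strand handling and filters are not given in the sources used here. The authors deposited FPKM per gene and library, with a p-value and q-value per gene that were not used. The table is ordered by q-value up to 0.908 and was used in part: 34921 complete entries, with 1 incomplete entry dropped, of 38022 that its p-values and q-values imply. FPKM is a share of all fragments, so abundant RNA such as mitochondrial RNA lowers all other values.

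Log2(FPKM + 1) of the 14016 genes with at least 1 FPKM in 3 or more libraries was modelled in R 4.3.3 by limma 3.58.1, each group having its own mean and all libraries entering, moderated with trend and robust settings (with statmod 1.5.0 and data.table, version 1.17.8). Benjamini-Hochberg adjustment was over all genes tested, with a threshold of 0.05. All comparisons with sham right share its libraries. The fit was checked on simulated data. Alternatives were a pseudocount of 0.1, no filter, rescaling without mitochondrially encoded genes, 2 median centrings, other sample sets and a replicate block.

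Named were the 3 genes, their tested relatives, in each list up to 2 genes past the test in each direction, and the 5 genes most like each by r; Gfap, Tnc, Angptl4 at 3 and 10 days, Vim after 3 days and genes given only as levels were named after their values were seen. Results for some genes that the rule names are not reported here. Members, lists and rules were chosen with earlier results of these data known. Sequences were compared with BLAST 2.17.0 and Biopython 1.88 in Python 3.11.15 (pandas, version 2.3.3).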

Additional observations from a re-analysis of the deposited data

Results flagged for a closer look

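Fabp7 lay on opposite sides of sham right at different times: below all 3 sham right libraries at 4 h and 1 day, and above all 3 at 3 days. Of all genes tested, 17.2% were below at 4 h, 8.5% below at 1 day and 27.2% above at 3 days. The log2 difference of Fabp7 from sham right was 4.04 higher at 3 days than at 4 h, and 3.33 higher (3.325 before rounding) at 3 days than at 1 day. Fabp5 showed the same order with a smaller gap, 1.02 between 3 days and 4 h. The Fabp7 gap between 1 day and 3 days is the step between these times that passed the test above. The gaps between 4 h and 3 days were not tested, because the genes were proposed for how they vary in these data.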

How the results depend on the processing

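The 24 differences of the 3 genes were recomputed under up to 15 alternatives each, 348 values in all: 314 kept direction and side of the threshold, 1 lost its call, 9 gained one and 24 turned in sign. Fabp7 passed at 4 h (-1.96 to -1.33), at 3 days (1.96 to 2.71) and from 1 to 3 days (3.08 to 3.52) under every alternative run. Its step to 10 days (-2.02) failed only when the 2 groups were fitted alone. Fabp7 was proposed with its 4 h and 3-day differences in these same libraries known. Passing there therefore shows only how far the processing matters and is no independent support.
With the 2 groups alone, Fabp7 at 1 day (-1.14) and Fabp5 at 4 h (-0.69), at 3 days (0.33) and from 1 to 3 days (0.53) passed. Without contralateral left 5 and 10 days 5, a narrower spread let Fabp7 at 1 day (-1.14) and from 4 h to 1 day (0.71) and Fabp5 at 4 h (-0.69) and from 1 to 3 days (0.53) pass.
Signs turned only among differences that never passed. Fabp3 turned in contralateral left (0.11 with the replicate block, 0.028 without the 2 libraries), at 1 day (0.017 rescaled without mitochondrial genes, 0.15 with the block, 0.077 against contralateral left), at 10 days (0.0072 with the block, 0.038 without the 2 libraries) and from 3 to 10 days (0.14 median-centred, 0.0504 with the block, 0.26 without the 2 libraries, 0.0066 centred on short genes). Fabp5 turned at 1 day against contralateral left (0.084), at 10 days centred on short genes (-0.14) and from 3 to 10 days without the 2 libraries (0.0107); Fabp7 turned at 10 days centred on short genes (-0.033).
Leaving out 1 library gave Fabp3 -0.26 to 0.028 in contralateral left, -0.20 to 0.13 at 1 day, -0.37 to 0.038 at 10 days and -0.16 to 0.26 from 3 to 10 days, Fabp5 -0.15 to 0.34 at 10 days and -0.48 to 0.0107 from 3 to 10 days, and Fabp7 -0.074 to 0.44 at 10 days. The causes were not tested.
Deviations of libraries of the same number had r from -0.23 to 0.41 over 23 pairs (median 0.037, 9 over 0.1). Libraries of different numbers had r from -0.60 to 0.66 over 112 pairs (median -0.011, 36 over 0.1). With 3 libraries per group this cannot decide if equal numbers mean the same mouse, and they were not taken as pairs. With the block, Fabp7 at 1 day was -1.20 and passed.
The number of genes past the test varied more: 306 at 4 h (70 to 1806), 165 at 1 day (57 to 418), 1032 at 3 days (330 to 1834), 1000 at 10 days (695 to 1208), 4 in contralateral left (0 to 2760, the latter without left 5 and 10 days 5), 172 from 4 h to 1 day (13 to 706), 732 from 1 to 3 days (102 to 1290) and 283 from 3 to 10 days (3 to 336). Centring on short genes moved the median of all genes by up to 0.27 and left 63 of 70 calls higher at 4 h, 52 of 57 at 1 day, 270 of 330 at 3 days and 393 of 1012 at 10 days, against 185 of 306, 126 of 165, 968 of 1032 and 871 of 1000.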
